A study of Mus musculus with 8 samples.

Results

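Aminoacyl-tRNA synthetases attach each amino acid to its own tRNA, so every round of elongation on a ribosome draws on their product. Separate nuclear genes encode the cytosolic enzymes and those imported into mitochondria, while a few genes serve both compartments. Several cytosolic enzymes sit together in the multisynthetase complex, which is held by the scaffold proteins Aimp1, Aimp2 and Eef1e1. In the mouse oocyte transcription is silent through meiotic maturation, so the mRNA of these enzymes is the store laid down during growth, and it can be bound by polysomes or held apart from them.

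The members were the rows of the gene table whose symbol equalled a listed synthetase symbol. All 36 listed genes were found among 25574 genes, 21 of them encoding cytosolic and 15 mitochondrial enzymes. The cytosolic genes include Kars and Gars, which serve both compartments. Lars2 was left out because its reads are shared with another locus.

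The libraries came from oocytes of CD1 mice aged 8 weeks, collected 46 h after 5 IU of PMSG and held at the germinal vesicle stage with IBMX. The oocytes were then released for 3 h to reach nuclear envelope breakdown (NEBD) and exposed to 0.1 mg/ml cycloheximide for 10 min, so that ribosomes stayed on the mRNA. Lysate of 200 pooled oocytes was spread over a sucrose gradient of 10 fractions. Fractions 2 to 5 made the non-polysomal (NP) dataset and fractions 6 to 10 the polysomal (P) dataset, with 4 libraries each. All libraries share the strain, hormone, culture and cycloheximide, and the labels set them apart only by the part of the gradient. Each replicate is a pool, and no unfractionated library was used here.

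Values are FPKM, reads divided by gene length and by the size of that library. Levels of different genes are set side by side on this scale with 2 limits. The cDNA was amplified before sequencing, and the length is not always that of 1 transcript. For Farsa the length behind the FPKM was 4538 bases, beside 1826 bases for its annotated transcript. The part of these limits in the ranking of genes was not tested. An FPKM is a share of a library: a gene can have a lower FPKM in P than in NP because less of its mRNA is on polysomes or because other mRNAs take more of the P library, and these cannot be told apart. The divisor behind each library's FPKM, recovered from the steps between low values, ranged from 1299377 in NP replicate 2 to 7594637 in NP replicate 4. All 14 oocyte markers were present, with summed levels of 7539 to 14783 FPKM in NP and 9796 to 37923 FPKM in P. Of 13 granulosa and cumulus markers 5 were at 0 in all libraries and 2, Cyp19a1 and Nr5a2, had a mean above 1 FPKM. The granulosa sum was 15.3 to 93.7 FPKM in NP and 3.27 to 64.0 FPKM in P. The 6 blood cell markers in the table summed to at most 0.406 FPKM in a library, and 5 of them were at 0 throughout.

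Synthetase mRNA was read in both datasets and was very unequal between enzymes. Of the 36 genes, 19 had a mean above 10 FPKM and 5 a mean below 1 FPKM. The α subunit of cytosolic phenylalanyl-tRNA synthetase, Farsa, had the highest mean level of the 36 genes at 293 FPKM over the 8 libraries. It was followed by lysyl (Kars, 202), seryl (Sars, 133), glutaminyl (Qars, 119) and mitochondrial phenylalanyl (Fars2, 112) tRNA synthetase. At the other end, tyrosyl-tRNA synthetase was nearly absent in both compartments. The cytosolic gene Yars gave 15 recovered reads in all libraries together, and the mitochondrial gene Yars2 gave 4. The median mean level was 28.2 FPKM for cytosolic and 7.45 FPKM for mitochondrial members, beside 5.38 FPKM for all genes tested.

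**Figure D1:**
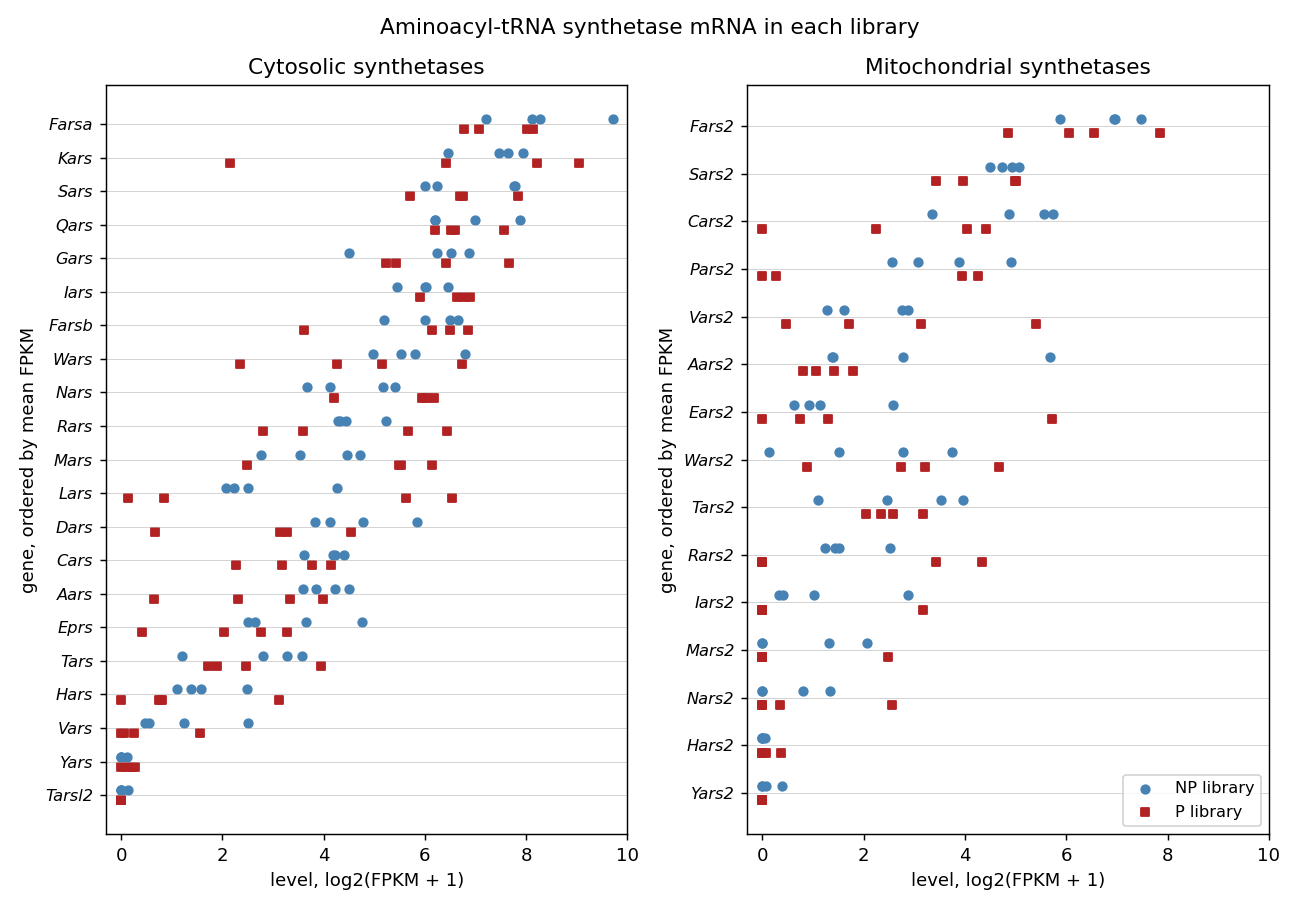
Level of each synthetase gene in each library as log2(FPKM + 1), with NP libraries as circles and P libraries as squares, and genes ordered by mean FPKM within the cytosolic and mitochondrial panels. Circles and squares overlap for every gene, and the mean level runs from 293 FPKM for Farsa down to 0.0126 FPKM for Tarsl2.

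A gene was tested where its mean was above 0.1 FPKM in at least 1 dataset, which left 14292 genes and 33 members, 20 cytosolic and 13 mitochondrial. The other 3 members were Tarsl2, a threonyl-tRNA synthetase paralogue, Hars2 and Yars2. Tarsl2 was read only in NP replicate 3, at 0.101 FPKM, and its gene model shares 923 bases on the same strand with Tm2d3. Hars2, the mitochondrial histidyl enzyme, was read at 0.0321 FPKM in NP replicate 3, 0.0497 FPKM in P replicate 1 and 0.292 FPKM in P replicate 2. Yars2 was read at 0.298 FPKM in NP replicate 1 and 0.0436 FPKM in NP replicate 3. Where Yars2 had no reads, a count of 0 allows up to 0.733 FPKM in NP replicate 2, the shallowest library, and this limit covers counting error only.

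No synthetase gene differed between P and NP past the threshold. At an adjusted p below 0.1 (limma on log2(FPKM + 1), Benjamini-Hochberg over all genes tested) 0 of 33 members were called, beside 0.021% of all genes tested, which is 3 genes. At an unadjusted p below 0.05, 1 member was lower in P, Cars2, where 9.47% of all genes tested were, and 0 were higher in P, where 0.476% were. No member had all NP libraries above all P libraries, a separation seen in 5.92% of all genes tested. No member had all P libraries above all NP libraries, which 0.357% of all genes tested had.

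The members were spread around the fold changes of all genes tested. The median log2 fold change of P over NP was −0.22 for all 36 members, −0.21 for the cytosolic and −0.23 for the mitochondrial genes, beside −0.39 for all genes tested. Against that median of all genes tested, 22 members lay above and 14 below. The 22 include the members not tested, Tarsl2 (−0.03), Hars2 (0.10) and Yars2 (−0.11), and this scale understates changes of low genes. The cytosolic median differed from that of all genes tested by 0.18. This difference was 0.75 with voom on recovered reads, 0.58 with a pseudocount of 0.1 and −0.09 without P replicate 1. Against 0, 23 of all 36 members, tested or not, were lower in P and 13 higher, and 71.4% of all genes tested were lower. The range ran from −2.20 for Cars2 to 1.04 for Mars.

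**Figure D2:**
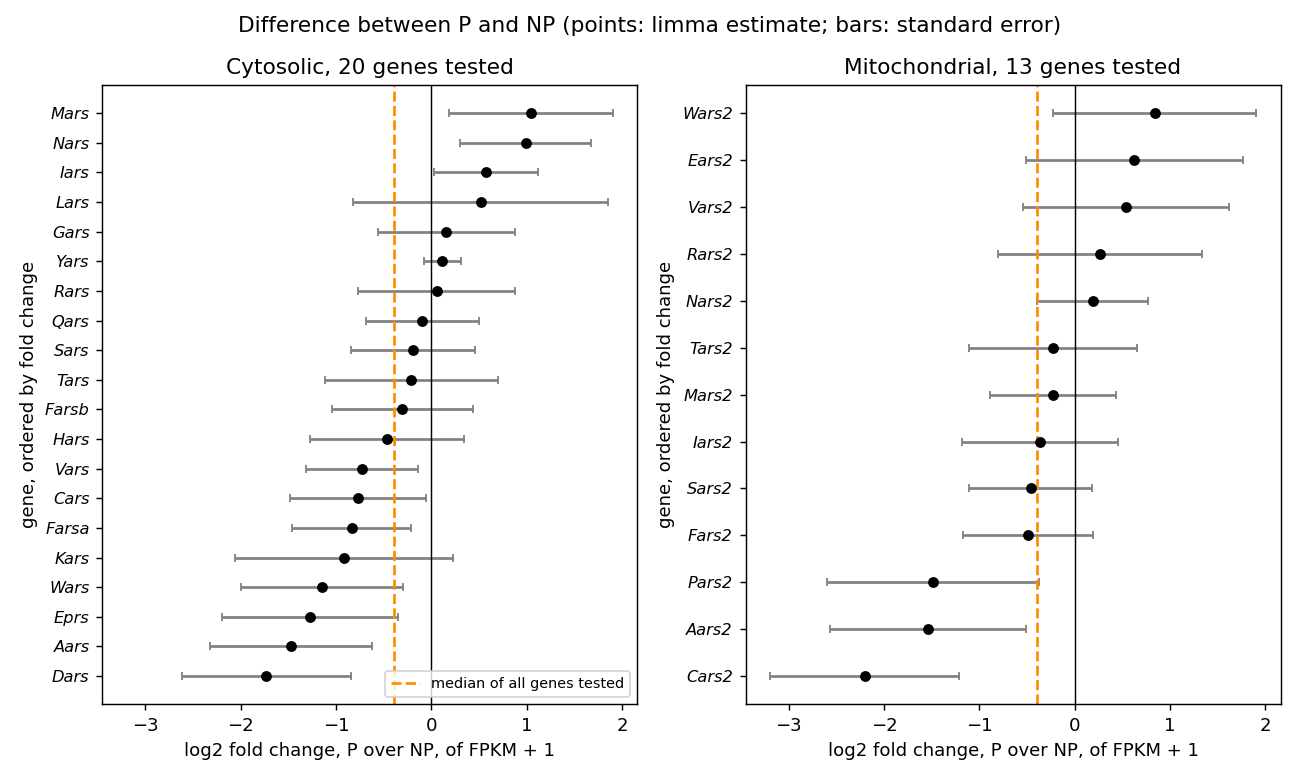
Log2 fold change of P over NP on the FPKM + 1 scale for the 33 members tested, with points for the limma estimate and bars for 1 standard error. The estimates run from −2.20 for Cars2 to 1.04 for Mars on either side of the dashed line at −0.39, the median of all genes tested.

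The phenylalanyl enzymes took the largest share of synthetase mRNA in several libraries. Cytosolic phenylalanyl-tRNA synthetase is a tetramer of α (Farsa) and β (Farsb) subunits, whereas the mitochondrial enzyme Fars2 works as a single chain. Farsa (chromosome 8, 84856989 to 84869257, GRCm38) was at 308, 276, 148 and 835 FPKM in NP replicates 1 to 4 and at 133, 109, 256 and 279 FPKM in P replicates 1 to 4. NP replicate 4 was the highest, the 2 lowest values were P libraries, and the datasets overlapped. Its mean was 392 ± 304 FPKM in NP and 194 ± 85.8 FPKM in P (SD, n = 4), and the log2 fold change of −0.83 (SE 0.62) did not pass the test (limma adjusted p = 0.644).

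Farsb was at 99.2, 89.1, 62.9 and 35.6 FPKM in NP and at 115, 69.8, 89.1 and 11.3 FPKM in P. The P libraries held both the highest and the lowest value of this gene. Its log2 fold change was −0.30 (SE 0.74, limma adjusted p = 0.868). Farsb shares 2329 bases on the opposite strand with Sgpp2, which had a mean of 7.03 FPKM in NP and 0.253 FPKM in P. The libraries carry no strand information, so reads in such a stretch cannot be given to either gene. By annotation 12 members overlap another gene, 8 of them a gene with a mean above 1 FPKM, and the part of these overlaps in the members' values was not tested.

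The 2 subunits were not read in a fixed proportion. The ratio of Farsa to Farsb FPKM was 3.10, 3.10, 2.35 and 23.5 in NP and 1.16, 1.56, 2.87 and 24.6 in P. Replicate 4 of both datasets stood far above the others, while the remaining ratios lay between 1.16 and 3.10. Fars2 was at 178, 122, 57.3 and 123 FPKM in NP and at 228, 27.7, 64.9 and 92.8 FPKM in P, again with the P libraries spanning a wider range. It was the leading mitochondrial synthetase in 7 of 8 libraries, and Sars2 led in P replicate 2. Its log2 fold change was −0.49 (SE 0.68, limma adjusted p = 0.767).

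The 8 enzymes of the multisynthetase complex (Eprs, Iars, Lars, Mars, Qars, Rars, Kars and Dars) were read in all 8 libraries. Their median log2 fold change was −0.02, beside −0.30 for the 13 cytosolic genes outside the complex and −0.39 for all genes tested. Of the 8 enzymes 4 were lower and 4 higher in P, where 71.4% of all genes tested were lower. Kars (chromosome 8, 111993440 to 112011323) was at 175, 198, 244 and 86.5 FPKM in NP and at 529, 3.47, 297 and 83.8 FPKM in P. P replicate 1 was the highest of all libraries and P replicate 2 the lowest, where the value rests on 25 recovered reads. The mean was 176 ± 66.2 FPKM in NP and 228 ± 236 FPKM in P (SD, n = 4). The log2 fold change was −0.91 (SE 1.14, limma adjusted p = 0.746), opposite in sign to the difference of the means, and it was 0.52 without P replicate 2.

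Aspartyl-tRNA synthetase, Dars, was at 56.5, 13.2, 26.5 and 16.4 FPKM in NP and at 8.74, 7.84, 22.3 and 0.596 FPKM in P. P replicates 1, 2 and 4 lay below every NP library, and P replicate 3 lay inside the NP range. Dars had a log2 fold change of −1.73 (SE 0.89, limma adjusted p = 0.528, and 0.0715 before adjustment). Eprs, the fused glutamyl and prolyl enzyme, was at 11.6, 5.24, 26.2 and 4.70 FPKM in NP and at 3.07, 8.68, 0.325 and 5.77 FPKM in P. The datasets overlapped, with a log2 fold change of −1.27 (SE 0.93, limma adjusted p = 0.640).

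Methionyl and isoleucyl tRNA synthetases had positive fold changes. Mars was at 5.77, 21.1, 10.5 and 25.2 FPKM in NP and at 45.0, 44.2, 69.3 and 4.58 FPKM in P. For Mars 3 of 4 P libraries lay above every NP library, and P replicate 4 lay below them all. Its log2 fold change was 1.04 (SE 0.86, limma adjusted p = 0.658). Mars shares 68 bases with Ddit3 on the opposite strand, and Ddit3 was at 300.2 FPKM in P replicate 1 and 0.546 to 24.0 FPKM elsewhere.

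Iars varied 2.04-fold within NP and 2.01-fold within P. It was at 63.5, 42.8, 87.1 and 63.8 FPKM in NP and at 118, 58.8, 98.8 and 109 FPKM in P, with 3 of 4 P libraries above every NP library. The difference on the log2 scale was 0.57 (SE 0.55, limma adjusted p = 0.689). Qars, the glutaminyl enzyme, ranged from 72.1 to 234 FPKM in NP and from 72.3 to 188 FPKM in P, so that every P library lay inside the NP range. Rars, the arginyl enzyme, ranged from 18.5 to 36.7 FPKM in NP and from 5.99 to 85.8 FPKM in P.

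Leucyl-tRNA synthetase, Lars, showed the widest spread of the complex. It was at 4.71, 3.19, 3.71 and 18.2 FPKM in NP and at 91.8, 0.809, 48.5 and 0.0968 FPKM in P. In P 2 libraries were above and 2 below all NP libraries, and the lowest rests on 1 recovered read. Lars shares 438 bases on the opposite strand with Rps19-ps4, a ribosomal protein pseudogene at 0 to 32.9 FPKM in NP and 0 to 124 FPKM in P. Over the complex, the SD of log2(FPKM + 1) was higher in P than in NP for 7 of 8 enzymes.

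The 3 scaffold genes of the complex had a median mean level of 45.4 FPKM, beside 29.6 FPKM for its 8 enzymes. Aimp2 was at 92.6, 209, 14.3 and 165 FPKM in NP and at 32.9, 28.7, 21.1 and 15.4 FPKM in P. NP replicates 1, 2 and 4 were far above all P libraries, and NP replicate 3 was the lowest library of all. The mean was 120 ± 85.3 FPKM in NP and 24.5 ± 7.83 FPKM in P, with a log2 fold change of −1.77 (SE 0.79, limma adjusted p = 0.491, and 0.0419 before adjustment). The log2 fold change was −0.36 for Eef1e1 (SE 0.65) and −0.66 for Aimp1 (SE 1.25), which had 93.2 FPKM in P replicate 4 and 0 to 5.50 FPKM in the other P libraries. None of the 3 scaffold genes was called at an adjusted p below 0.1, beside 0.021% of all genes tested, and 1 of them was lower in P at an unadjusted p below 0.05, beside 9.47%.

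Outside the complex, asparaginyl-tRNA synthetase, Nars, was the member with the smallest p among those higher in P. It was at 11.8, 16.4, 35.2 and 41.2 FPKM in NP and at 64.0, 71.2, 17.4 and 60.4 FPKM in P. P replicates 1, 2 and 4 lay above every NP library, and P replicate 3 lay inside the NP range. The mean was 26.2 ± 14.3 FPKM in NP and 53.2 ± 24.3 FPKM in P (SD, n = 4), and the log2 fold change was 0.99 (SE 0.69, limma adjusted p = 0.636).

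Alanyl-tRNA synthetase, Aars, was at 21.8, 17.7, 13.4 and 11.0 FPKM in NP and at 14.8, 9.07, 3.97 and 0.563 FPKM in P. P replicates 2, 3 and 4 lay below every NP library. For Aars the log2 fold change was −1.47 (SE 0.85, limma adjusted p = 0.561, and 0.107 before adjustment). Wars, the tryptophanyl enzyme, was at 110, 54.7, 45.2 and 30.4 FPKM in NP and at 105, 18.1, 34.8 and 4.12 FPKM in P. P replicate 1 was close to the highest NP library and P replicate 4 was the lowest. Wars had a log2 fold change of −1.15 (SE 0.85, limma adjusted p = 0.644).

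Seryl and glycyl tRNA synthetases were high and did not separate the datasets. Sars was at 215, 219, 74.4 and 63.1 FPKM in NP and at 229, 103, 51.2 and 107 FPKM in P, with a log2 fold change of −0.19 (SE 0.65, limma adjusted p = 0.906). Gars was at 90.2, 116, 74.9 and 21.6 FPKM in NP and at 84.5, 202, 42.3 and 36.4 FPKM in P, with a log2 fold change of 0.16 (SE 0.72, limma adjusted p = 0.930). Replicate 2 was the highest Gars library in each dataset. Tars, the threonyl enzyme, was low, at 1.31, 8.76, 10.9 and 5.94 FPKM in NP and at 14.5, 2.72, 4.52 and 2.27 FPKM in P, with a log2 fold change of −0.21 (SE 0.91, limma adjusted p = 0.925). Vars, the valyl enzyme, ranged from 0.391 to 4.66 FPKM in NP and from 0 to 1.95 FPKM in P, and Hars, the histidyl enzyme, from 1.16 to 4.57 FPKM and from 0 to 7.69 FPKM.

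Among the mitochondrial enzymes the lowest fold change belonged to cysteinyl-tRNA synthetase, Cars2 (chromosome 8, 11514021 to 11550771). It was at 46.0, 52.5, 9.15 and 28.2 FPKM in NP and at 20.4, 3.72, 15.5 and 0 FPKM in P. NP replicates 1, 2 and 4 lay above all P libraries, and NP replicate 3 lay among the P values. P replicate 4 had no read, which allows up to 0.607 FPKM. The mean was 34.0 ± 19.5 FPKM in NP and 9.90 ± 9.62 FPKM in P (SD, n = 4). This gave a log2 fold change of −2.20 (SE 0.99, limma adjusted p = 0.493, and 0.0439 before adjustment). Without P replicate 4 it was −1.31, with a limma unadjusted p of 0.134, and over all alternatives that p ran from 0.0179 to 0.205. Cars2 shares 940 bases on the opposite strand with Carkd, which averaged 5.82 FPKM in NP and 3.78 FPKM in P.

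Mitochondrial alanyl-tRNA synthetase, Aars2, was at 5.80, 50.1, 1.64 and 1.57 FPKM in NP and at 1.65, 0.745, 1.08 and 2.45 FPKM in P. NP replicate 2 alone stood far above the rest. The log2 fold change was −1.54 (SE 1.03, limma adjusted p = 0.615), and it was −0.58 without that library. Pars2, the prolyl enzyme, was at 13.7, 29.1, 7.37 and 4.85 FPKM in NP and at 18.1, 0.202, 14.3 and 0 FPKM in P, where 2 libraries lay inside the NP range and 2 below it. Its log2 fold change was −1.49 (SE 1.11, limma adjusted p = 0.644).

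Sars2, the seryl enzyme, varied 1.52-fold within NP and 3.17-fold within P. It was at 25.4, 32.6, 29.5 and 21.5 FPKM in NP and at 31.0, 30.7, 14.6 and 9.78 FPKM in P, with a log2 fold change of −0.46 (SE 0.64, limma adjusted p = 0.769). Wars2, the tryptophanyl enzyme, was at 1.84, 5.82, 12.4 and 0.0886 FPKM in NP and at 5.69, 0.839, 8.25 and 24.6 FPKM in P. The spread was wide in both datasets, and the log2 fold change was 0.84 (SE 1.06, limma adjusted p = 0.749).

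Several mitochondrial members were read very unevenly among the P libraries, and so were cytosolic members such as Kars, Lars, Rars, Wars, Hars and Vars. Ears2, the glutamyl enzyme, was at 51.7 FPKM in P replicate 3 and at 0 to 1.45 FPKM in the other P libraries. Vars2 was at 41.0 FPKM in P replicate 4 and at 0.371 to 7.72 FPKM in the other P libraries. Iars2 was read in P replicate 3 alone of the P libraries, at 8.05 FPKM. It shares 2018 bases on the opposite strand with Rab3gap2, which was at 39.1 to 81.8 FPKM in all libraries. Mars2 was read in P replicate 4 alone of the P libraries, at 4.53 FPKM, and Rars2 in P replicates 1 and 2 alone, at 19.0 and 9.68 FPKM.

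Zeros were more common in P than in NP for the mitochondrial genes, as they were for all genes tested. Of 60 mitochondrial values in each dataset 15% were 0 in NP and 31.7% in P, beside 7.14% and 8.33% of 84 cytosolic values. Among all genes tested the shares were 16.0% and 29.1%. The member shares also cover Hars2, Yars2 and Tarsl2, which were not tested, so the sets are unlike. Hars2 was above 0 in 1 NP and 2 P libraries, Yars2 in 2 NP and 0 P, and Tarsl2 in 1 NP and 0 P. Members at 0 numbered 5, 5, 0 and 5 in the NP libraries and 4, 5, 6 and 11 in the P libraries, P replicate 4 having the most. The SD of log2(FPKM + 1) was higher in P than in NP for 26 of all 36 members (72.2%), tested or not, and for 57.9% of all genes tested.

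The sums over all enzymes of a compartment showed no separation of the datasets. Summed cytosolic FPKM was 1344, 1352, 993 and 1370 in NP and 1811, 800, 1221 and 824 in P. P replicate 1 was above every NP library, and P replicates 2 and 4 were below. The means were 1265 ± 182 and 1164 ± 473 FPKM (SD, n = 4), a ratio of P to NP of 0.921. Summed mitochondrial FPKM was 280, 320, 136 and 202 in NP and 346, 82.6, 182 and 180 in P, with means of 235 ± 81.5 and 197 ± 109 FPKM and a ratio of 0.842.

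The make-up of the sum changed from library to library. Farsa held 53.1% of all synthetase FPKM in NP replicate 4, 16.5% in NP replicate 2 and 27.8% in P replicate 4, where it also led. Kars led in NP replicate 3 and in P replicates 1 and 3 with 21.2% to 24.5%, and Gars led in P replicate 2 with 22.9%. Together the 36 genes made up 0.259% to 0.286% of summed FPKM in the NP libraries and 0.157% to 0.359% in the P libraries, so this share was steadier in NP.

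**Figure D3:**
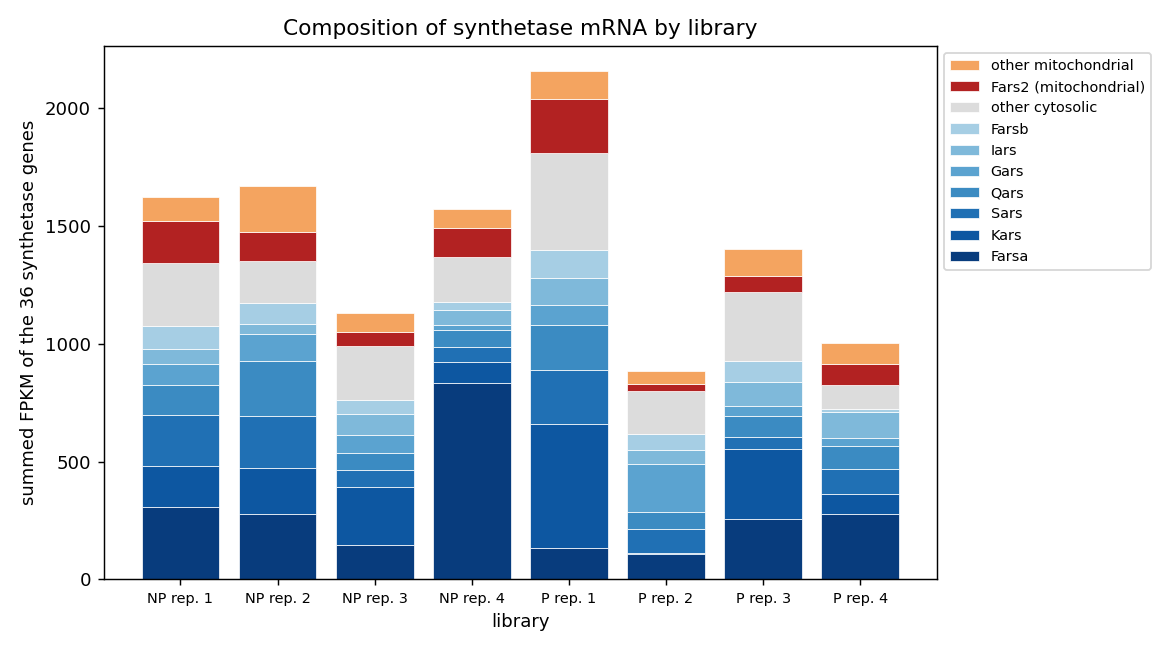
Summed FPKM of the 36 synthetase genes in each library, stacked by gene for the 7 most abundant cytosolic members and Fars2, with the rest pooled by compartment. The bars run from 883 FPKM in P replicate 2 to 2157 FPKM in P replicate 1, and Farsa fills 53.1% of the bar of NP replicate 4.

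Cytosolic enzymes outweighed mitochondrial ones in sum in every library. The ratio of cytosolic to mitochondrial summed FPKM was 4.80, 4.23, 7.27 and 6.78 in NP and 5.24, 9.68, 6.72 and 4.59 in P. On the log2(FPKM + 1) scale the mean cytosolic level exceeded the mean mitochondrial level by 1.97 ± 0.32 in NP and 1.95 ± 0.37 in P (SD, n = 4), a difference between datasets of −0.02 that is smaller than either spread. With voom on recovered reads this difference was 0.53, and with a pseudocount of 0.1 it was 0.21.

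For 12 amino acids a single cytosolic gene was set against a single mitochondrial gene. Threonine was represented by Tars and Tars2, with the paralogue Tarsl2 left out. The cytosolic mean was higher for 9 of them, among them tyrosine with few reads in both genes, and the mitochondrial mean for 3. Nars, Iars, Mars and Sars were above their mitochondrial counterparts in all 8 libraries. Iars averaged 80.2 FPKM against 1.999 FPKM for Iars2, and Nars 39.7 FPKM against 0.922 FPKM for Nars2. Valine was the reverse, with Vars2 above Vars in all 8 libraries and means of 8.38 and 1.13 FPKM. The other mitochondrial means that were higher were Cars2 (21.9 FPKM against 13.5 FPKM for Cars, higher in 5 of 8 libraries) and Tars2, whose 6.37 FPKM differed little from 6.36 FPKM for Tars.

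The fold changes of the enzymes for a shared amino acid had the same sign for 6 of the 12 amino acids and opposite signs for 6. The opposite signs include histidine and tyrosine, where Hars2 and Yars2 were not tested and gave 6 and 4 recovered reads over all libraries. The enzymes for alanine and for cysteine had negative fold changes in both compartments, at −1.47 for Aars and −1.54 for Aars2, and at −0.77 for Cars and −2.20 for Cars2. Tryptophan had opposite signs, at −1.15 for Wars and 0.84 for Wars2. None of these values passed the test.

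**Figure D4:**
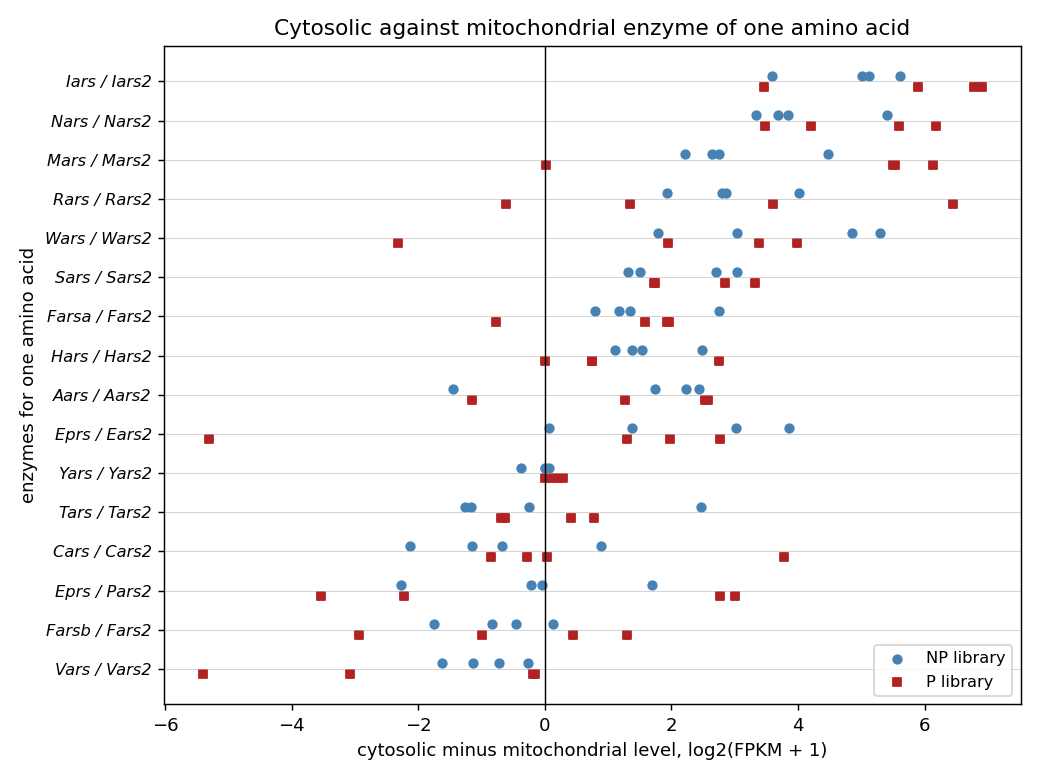
Cytosolic minus mitochondrial level on the log2(FPKM + 1) scale in each library, for each cytosolic gene except Tarsl2 and the mitochondrial gene of the same amino acid, with NP libraries as circles and P libraries as squares. Iars, Nars, Mars and Sars lie to the right of 0 in all 8 libraries and Vars lies to the left in all 8.

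The enzymes fall into 2 structural classes by the fold of the catalytic domain. The median log2 fold change was 0.06 for the 17 class I and −0.38 for the 18 class II genes, beside −0.39 for all genes tested. Eprs, which holds a domain of each class, is in neither group. Beside 71.4% of all genes tested, 8 of 17 class I and 14 of 18 class II genes were lower in P, tested or not. Class I had 9 genes higher in P and class II had 4. These are descriptions of the lists, since no member of either class was called.

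Polysome loading of stored oocyte mRNA is known to depend in part on the cytoplasmic polyadenylation element (CPE), a U-rich motif near the polyadenylation signal that is bound by CPEB. The letters TTTTAT or TTTTAAT were searched on the sense strand of the last 100 bases of the annotated 3′ UTR, which 32 members had in GENCODE vM21. Of these, 7 held the motif (21.9%), beside 19.4% of 10984 genes tested. The motif was found in 6 of 18 cytosolic and 1 of 14 mitochondrial genes. The mitochondrial gene was Mars2, with the motif at chr1:55248392-55248421. This lies outside the gene model behind its FPKM, which ends at 55240058. Members had a shorter 3′ UTR, with a median of 460 bases beside 1052 bases. The sites of Farsa, Kars and Sars are shown because these are the 3 most abundant members, with the motif in capitals, 5′ to 3′ along the mRNA, from GRCm38.

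Farsa, chr8:84869200-84869229, plus strand: caggccagctgTTTTAATaaagtgggcaca
Kars, chr8:111993464-111993493, minus strand: taaagaagttctTTTTATtcctcgttacca
Sars, chr3:108424918-108424947, minus strand: taacagcatgaaTTTTATggttgggggcca

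In Kars the motif begins 18 bases before an AATAAA signal. In Sars no AATAAA or ATTAAA was found in the last 40 bases of the annotated transcript, and in Farsa the letters of the motif run into an AATAAA that begins outside that window. The 7 genes with the motif had log2 fold changes of −0.83 (Farsa), −0.91 (Kars), −0.19 (Sars), −1.47 (Aars), 0.52 (Lars), −0.23 (Mars2) and −0.03 (Tarsl2), of which Tarsl2 was not tested and the others did not pass the test. The median log2 fold change was −0.23 for the 7 members with the motif and −0.23 for the 25 without it, and among all genes tested it was −0.38 with and −0.40 without. A match is a description of letters in the annotated end, which may not be the end used in the oocyte.

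Genes that work beside the synthetases were also spread over both datasets. Of the mitochondrial amidotransferase and formyltransferase list, 3 of 4 genes were found and 0 were called at an adjusted p below 0.1, beside 0.021% of all genes tested. Mtfmt, which formylates the initiator methionyl-tRNA, was the highest of these at 7.22 ± 5.29 FPKM in NP and 14.8 ± 16.9 FPKM in P (SD, n = 4). Gatc, an amidotransferase subunit, stayed at or below 0.698 FPKM. Of the list for tRNA proofreading, end processing and export, 7 of 8 genes were found, 6 were tested and 0 were called, beside the same 0.021%. Dtd1, which removes D-amino acids from tRNA, had 1.11 to 11.1 FPKM in NP and was read in P replicate 1 alone of the P libraries, at 3.71 FPKM, with a log2 fold change of −1.49 (SE 0.81, limma adjusted p = 0.539). Aarsd1, an alanyl-tRNA editing protein, had a log2 fold change of −1.08 (SE 0.83, limma adjusted p = 0.645). Ptrh2, a peptidyl-tRNA hydrolase, was at 1.44 to 251 FPKM in P and 23.7 to 91.7 FPKM in NP, while Xpot, the tRNA export receptor, stayed at or below 0.298 FPKM. Sepsecs and Pstk, which make selenocysteinyl-tRNA, were tested and not called, at log2 fold changes of −0.24 and −0.88.

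Atf4 is the transcription factor that raises several synthetases and amino acid genes when uncharged tRNA accumulates. None of the 14 genes of the Atf4 and amino acid response list was called at an adjusted p below 0.1, beside 0.021% of all genes tested. None had a limma unadjusted p below 0.05 in either direction, beside 9.47% of all genes tested lower and 0.476% higher in P. Atf4 itself was at 288, 269, 159 and 89.2 FPKM in NP and at 278, 153, 41.5 and 91.6 FPKM in P, the datasets overlapping widely. For Atf4 the log2 fold change was −0.68 (SE 0.67, limma adjusted p = 0.691). Asns, asparagine synthetase, had a log2 fold change of −1.15 (SE 0.90, limma adjusted p = 0.650), and Shmt2, the mitochondrial serine hydroxymethyltransferase, −1.08 (SE 0.88, limma adjusted p = 0.657). Mthfd2, a mitochondrial folate enzyme, had 0.16 (SE 0.58, limma adjusted p = 0.915).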

How the data were processed

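Polysomal (P) and non-polysomal (NP) RNA was sequenced in 4 libraries per dataset, and groups and replicate numbers came from the sample titles. The study describes 4 independent biological replicates, each from pooled oocytes. The authors depleted rRNA, amplified the cDNA, trimmed reads with Trim Galore 0.4.1, checked them with FastQC 0.11.5, mapped them with HISAT2 2.0.5 to GRCm38 and deposited FPKM values computed in Seqmonk. No source used here gives the annotation version, and the amplification and tagmentation steps do not keep strand. The FPKM table deposited by the authors holds 25574 genes and was not scaled to total RNA. The other tables, the authors' differential abundance results (fold changes and p-values) and their means and ratios of expressed genes, were not used.

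log2(FPKM + 1) was fitted with limma 3.58.1 (trend, R 4.3.3), P against NP, without a block, and p-values were adjusted by Benjamini-Hochberg over all 14292 genes with a mean above 0.1 FPKM in at least 1 dataset. Fold changes on this scale understate changes of low genes. The fit was tested on simulated data. Whole reads were recovered from FPKM steps for 88.1% of genes with a value above 0 and 35 of 36 members (within 0.01 of a whole number). The recovered reads of a library sum to more than the number it was scaled to, and no source used here says what that number counts. A count of 3 reads sets each limit on a value of 0.

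Values were given for the 6 members with the smallest p and the 3 with the highest mean in each compartment, for Gars, Kars, Farsa, Farsb, Tars and the members not tested, and for the 2 genes with the smallest p in each pathway list. Values of the complex enzymes Iars, Mars and Lars, of other members in the text, and of Aimp1, Atf4, Mthfd2, Ptrh2 and Xpot outside that rule were added after they were seen. The members and all lists were chosen with earlier results of these data known. Alternatives were another pseudocount, other filters, quantile normalization, median centring, limma without trend, each replicate left out, a replicate block and voom on recovered reads with TMM factors computed from their published definition.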

Additional observations from a re-analysis of the deposited data

Results flagged for a closer look

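Among 70 groups of 4 libraries, 10 held a library whose distance from the next, as a share of the group's range on the log2(FPKM + 1) scale, passed Dixon's 95% critical value. For normally distributed values chance flags about 1 group in 20. Where the other libraries of a group are all at 0 the share is 1.0 by construction, so the count of 10 cannot be read against that rate. The share was 0.882 for Nars, where P replicate 3 had 17.4 FPKM and the other P libraries 60.4 to 71.2 FPKM. It was 0.837 for Rars, where NP replicate 3 had 36.7 FPKM and the other NP libraries 18.5 to 20.7 FPKM. It was 0.867 for Nars2 in P replicate 1 (4.85 FPKM against 0 to 0.266 FPKM) and 0.831 for Vars in P replicate 2 (1.95 FPKM against 0 to 0.200 FPKM). It was 1.0 for Iars2 in P replicate 3 (8.05 FPKM) and for Mars2 in P replicate 4 (4.53 FPKM), with the other 3 P libraries at 0. The remaining groups hold few reads: the share was 1.0 for Hars2, Tarsl2 and Yars in NP replicate 3 (0.0321, 0.101 and 0.0925 FPKM) and 0.836 for Yars2 in NP replicate 1 (0.298 FPKM). The cause was not tested for any of them.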

How the results depend on the processing

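No member was called at an adjusted p below 0.1 under any alternative run. The count of members lower in P at an unadjusted p below 0.05, 1 in the fit reported, was 0 without a filter, with quantile normalization, with median centring, without the trend and with voom on recovered reads. With libraries left out it ran from 0 to 3, being 0 without NP replicates 1, 2 or 4 or P replicates 2 or 4, where 7.51% to 10.9% of all genes tested were lower, 3 of 32 without P replicate 1 (10.2% of all genes tested) and 2 of 34 without P replicate 3 (8.0%). The count higher in P, 0 in the fit reported, was 5 with median centring, where 19.0% of all genes tested were higher, and 0 to 1 with libraries left out (1 without P replicate 3 or 4, where 1.14% and 1.0% of all genes tested were higher). Members with all NP libraries above all P libraries numbered 0 to 2 with libraries left out. Members with all P libraries above all NP libraries numbered 1 with quantile normalization, 2 with median centring, 1 with voom and 0 to 1 with libraries left out. The share of all genes tested that separated under these alternatives was not computed, so these counts are not read as a result about the members.

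Median centring moved the median log2 fold change of all genes tested from −0.39 to 0.57, and quantile normalization to −0.02. With median centring the cytosolic median was 0.75 and the mitochondrial 0.73, and the summed P over NP ratios were 1.70 and 1.61, but relative to all genes tested both medians kept the reported +0.18 and +0.16. With voom the cytosolic median was 0.28 and the cytosolic minus mitochondrial difference between datasets 0.53. With libraries left out the cytosolic median ran from −0.56 to −0.05, the mitochondrial from −0.42 to 0.01, the difference from −0.18 to 0.16, and the summed ratios from 0.750 to 1.016 and from 0.631 to 1.005.

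Of 272 alternative fold changes of 17 members, 25 changed sign, in 8 members. Median centring added the same 0.96 to every member, so its 7 sign changes follow from its construction. With it the log2 fold change was 0.47 for Fars2, 0.12 for Farsa, 0.65 for Farsb, 0.045 for Kars, 0.77 for Sars, 0.50 for Sars2 and 0.75 for Tars. With quantile normalization it was 0.021 for Farsb, 0.000896 for Sars and 0.58 for Tars. With voom it was 0.10 for Fars2, 0.33 for Farsb, 0.45 for Sars, 0.012 for Sars2 and 0.24 for Tars. With libraries left out it ran from −0.998 to 0.000577 for Fars2, −0.66 to 0.42 for Farsb, −0.35 to 0.48 for Gars, −1.78 to 0.52 for Kars, −0.56 to 0.16 for Sars and −0.71 to 0.075 for Tars. The cause of the other 18 sign changes was not tested.

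Replicate numbers were treated as names only, since the labels do not tie a number to a gradient. Deviations from the dataset means of same-numbered NP and P libraries correlated at 0.139, 0.0518, 0.251 and 0.155 over 11374 genes, each P library correlated best with its own number, and NP replicate 2 correlated best with P replicate 1 (0.136). With the replicate block 2 members were lower in P at an unadjusted p below 0.05, Cars2 and Dars, beside 11.3% of all genes tested, 0 were higher, beside 0.812%, and no other call changed.

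Yars, Yars2 and Hars2 gave 15, 4 and 6 recovered reads over all libraries and Tarsl2 was read in 1 library, so no difference was detectable for them at this depth.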
